A study of Mus musculus with 8 samples.

Results

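The 10 genes described here, out of 18138 genes on the array, are used as markers of dendritic cells: Itgae, Itgax, Il4i1, Flt3, Ccr7, Cacnb3, Adam23, Asb2, Ffar2 and Fscn1. They were chosen by name, and every probe of each gene was taken, which gave 18 of the 25697 probes. Several of them were picked because they differed strongly between the genotypes before stimulation. That difference, and every response that starts from the unstimulated arrays, is therefore given as a description without a test. The comparison of the stimulated genotypes was not the one they were picked on and is the one that was tested. Earlier results of these data were, however, known when the genes were chosen.

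The cells were bone marrow-derived macrophages of female mice aged 8 weeks, either wild type (WT) or deficient in iNOS, the inducible nitric oxide synthase encoded by Nos2. The labels give C57BL/6J as the strain of both genotypes, while the study's methods give it for the wild type and name the deficient strain B6.129P2-Nos2tm1Lau/J, which carries the mutation in the whole body. Genotype and any difference between these strains cannot be told apart. Marrow cells of both genotypes were grown with GM-CSF at 10 ng/ml for 7 days, and all 4 groups share that culture. Cells then stayed without further stimulus or received LPS at 200 ng/ml plus IFN-γ at 10 ng/ml for 6 hours, which is called M1 here. Each group was hybridised to 2 arrays, giving 8. Whether the arrays of a group came from separate mice or cultures is not stated, so the p-values measure only the spread between these arrays, which may be technical.

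Dendritic cells take up antigen in tissues and, once activated, carry it to lymph nodes and present it to T cells. Conventional dendritic cells are divided into a cDC1 branch, which cross-presents antigen to CD8 T cells, and a cDC2 branch. Both can pass into a mature, migratory state. Marrow grown in GM-CSF is known to yield macrophages and dendritic cell-like cells side by side. In such bulk RNA, fewer cells of a type and less RNA per cell cannot be told apart.

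The array reads each gene through 50-base probes, and the genes with several probes give repeated readings of 1 transcript pool. The first 30 bases of the probes that the results rest on are shown because agreement between probes counts as separate evidence only where their sequences differ. Numbers after a gene name are the start position in the transcript that the deposited table gives, and capitals mark bases that a second probe of the same gene also holds.
Itgae 2682: cCCAAGCCAGTTGCTTCTGTCCTGGTCATG
Itgae 2683: CCAAGCCAGTTGCTTCTGTCCTGGTCATGA
Itgae 3275: actgccgatccttggtgaaatatctttcaa
Itgae 3775: aGCACGGTTCCCAGTTTGCCATGCGTTTTG
Itgae 3777: GCACGGTTCCCAGTTTGCCATGCGTTTTGA
Cacnb3 1745: tgcccagtgctaacgggcacgacccccaag
Cacnb3 1793: actcggagcatgaccacaatgaccggaact
Cacnb3 2472: gcatctggtgagactagggaactggggcat
Ccr7 1794: aaaggtaggggaaaggtgacagaaaggaga
Il4i1 1963: cccagctcctaagccagccctcttcagggc
Fscn1 2276: aaggccctaggcaagcctgccctgttggtt
Ffar2 2132: ccactgttatgccgggatctgggtcacatg
The 6 Itgae probes hold 2 pairs that are shifted by 1 base and share 49 of their 50 bases. Each pair is therefore close to a repeat of 1 probe. The 4 Cacnb3 probes share no such stretch. The other 8 genes had 1 probe each.

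All values are log2 of the deposited intensity after scaling the arrays to each other, with values under 1 set to 1, so that 0 is the lowest possible level. A probe was called detected on an array when its detection p-value was under 0.05, and tested when it was detected on at least 2 arrays, which left 13868 probes. Between 46.0% and 49.3% of probes were detected on each array. The median probe differed by 0.16 to 0.19 between arrays of 1 group and by 0.34 to 0.82 between arrays of different groups. The macrophage markers Emr1, encoding F4/80 (11.19 to 11.67), and Csf1r, the M-CSF receptor (10.00 to 11.76), were detected on all 8 arrays. Nos2 was not detected on any unstimulated array. After activation it read 7.47 and 7.05 on the WT arrays and 7.49 and 7.67 on those labelled iNOS-/-, a difference of 0.32 (SE 0.32, adjusted p = 0.445, limma). The probe thus did not show the loss that the label states. Which part of the gene is deleted is not given in the sources used here, and the probe may lie outside it. The arrays are therefore called labelled iNOS-/-.

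Of the 10 genes, 9 had a probe that was tested. After activation, 4 genes associated with mature dendritic cells were higher on the M1 arrays labelled iNOS-/- than on the WT M1 arrays: Ccr7, Il4i1, Cacnb3 and Fscn1. The largest of these differences was that of Ccr7, 7.80-fold. Ffar2, a receptor for short-chain fatty acids, was 2.70-fold lower. Itgae, Itgax, Adam23 and Asb2 did not pass the test by their brightest probe. Flt3 was detected on no array.

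**Figure D1:**
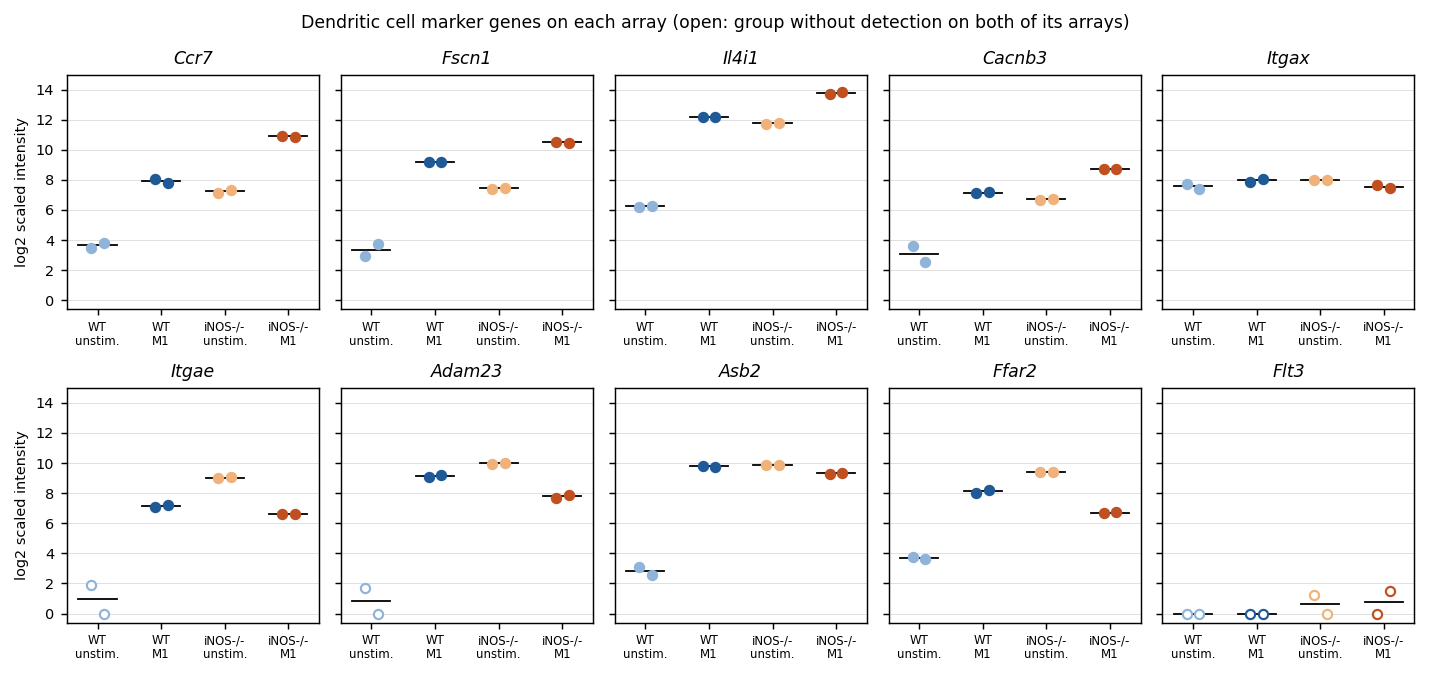
Level of each of the 10 genes by its brightest probe on the 8 arrays, as log2 scaled intensity. Each point is 1 array, the line is the mean of the 2 arrays of a group, and open points mark groups in which the probe was not detected on both arrays; in the top row the M1 arrays labelled iNOS-/- are highest for Ccr7, Fscn1, Il4i1 and Cacnb3, while Itgae, Adam23 and Ffar2 are highest on the unstimulated arrays labelled iNOS-/-.

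Ccr7 encodes the receptor for the chemokines CCL19 and CCL21, which leads mature dendritic cells into lymphatic vessels and lymph nodes. It read 3.49 and 3.84 on the unstimulated WT arrays, 7.13 and 7.35 on the unstimulated arrays labelled iNOS-/-, 8.06 and 7.78 on the WT M1 arrays and 10.94 and 10.82 on the M1 arrays labelled iNOS-/-. None of these groups overlapped. The M1 groups differed by 2.96 (SE 0.17, adjusted p = 0.00027). As a description, the genotypes differed by 3.58 before stimulation, and activation raised the reading by 4.25 in WT and by 3.64 in cells labelled iNOS-/-. The deposited intensities behind these values ran from 12.8 to 1792, and the probe was detected on all 8 arrays.

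Il4i1 encodes a secreted enzyme that oxidises phenylalanine and other amino acids. Its readings were 6.20 and 6.28 without stimulation in WT, 11.72 and 11.78 without stimulation in cells labelled iNOS-/-, 12.15 and 12.17 in WT M1 cells and 13.69 and 13.82 in M1 cells labelled iNOS-/-. The means of unstimulated cells labelled iNOS-/- and of WT M1 cells differed by -0.42, and the 4 groups kept the order of Ccr7. The M1 groups differed by 1.59 (SE 0.089, adjusted p = 0.00026), a 3.01-fold difference. Nup62 shares the genomic locus of Il4i1 in the mouse. Its own probe was higher by 0.47 on the M1 arrays labelled iNOS-/- (SE 0.08, adjusted p = 0.0067), a difference that was 0.16 and not called with quantile normalization or neqc.

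Fscn1 encodes fascin, the actin-bundling protein of dendrites. It stood at 2.92 and 3.76 in unstimulated WT cells, 7.39 and 7.47 in unstimulated cells labelled iNOS-/-, 9.18 on both WT M1 arrays and 10.54 and 10.47 on the M1 arrays labelled iNOS-/-. The M1 groups differed by 1.32 (SE 0.27, adjusted p = 0.0118). Without 1 array this call was lost in 3 of the 8 cases: without WT M1 replicate 1 (adjusted p = 0.0526), without WT M1 replicate 2 (adjusted p = 0.0534) and without the first M1 array labelled iNOS-/- (adjusted p = 0.0532). The difference itself stayed between 1.29 and 1.33 in those fits.

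Cacnb3 encodes a beta subunit of voltage-gated calcium channels. Its brightest probe, at 2472, gave 3.62 and 2.51 on the unstimulated WT arrays, 6.68 and 6.74 on the unstimulated arrays labelled iNOS-/-, 7.11 and 7.18 on the WT M1 arrays and 8.75 and 8.72 on the M1 arrays labelled iNOS-/-. The M1 difference was 1.60 (SE 0.35, adjusted p = 0.0149). It was no longer called when any 1 of the 4 M1 arrays was left out (adjusted p from 0.0573 to 0.0655). The probe at 1793, whose sequence is unrelated, also rose, by 1.37 (SE 0.14, adjusted p = 0.00114). The dim probe at 1745 was detected only on the 2 M1 arrays labelled iNOS-/-, at 4.20 and 4.10, and was at least 2.59-fold higher there than on the WT M1 arrays. It passed the filter through that group alone, so its difference is no further support. The probe at 400 was detected on 1 array and was not tested.

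Ffar2 encodes GPR43, a G protein-coupled receptor for acetate, propionate and butyrate. Between the M1 groups it went the other way from the 4 genes above. Its readings were 3.74 and 3.60 in unstimulated WT cells, 9.41 and 9.43 in unstimulated cells labelled iNOS-/-, 8.04 and 8.24 in WT M1 cells and 6.69 and 6.73 in M1 cells labelled iNOS-/-. The M1 groups differed by -1.43 (SE 0.10, adjusted p = 0.00044). As a description, activation went with a gain of 4.47 in WT and with a loss, -2.71, in cells labelled iNOS-/-, which started higher by 5.75.

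Itgae encodes CD103, the integrin chain alpha E that pairs with beta 7 and binds E-cadherin, and marks cDC1 of several tissues. The probe at 3775 gave 1.92 and 0.00 in unstimulated WT cells, where it was not detected, 8.99 and 9.07 in unstimulated cells labelled iNOS-/-, 7.06 and 7.24 in WT M1 cells and 6.58 and 6.62 in M1 cells labelled iNOS-/-. The M1 groups did not overlap, but the difference of -0.55 was not called (SE 0.60, adjusted p = 0.490). The near-identical probe at 3777 gave the same size, -0.57, and was called (SE 0.083, adjusted p = 0.0036). The probes differed in the unstimulated WT arrays, which read 0.00 on both arrays for the second probe and spread from 0.00 to 1.92 for the first, and all 8 arrays share 1 estimate of the spread. In a fit of the 4 M1 arrays alone the probe at 3775 was called (adjusted p = 0.0440).

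The other pair of Itgae probes was dimmer. The probe at 2682 was not detected on the M1 arrays labelled iNOS-/- and was at least 2.05-fold lower there than on the WT M1 arrays (adjusted p = 0.00036). Its partner at 2683 differed by -0.76 and was not called (SE 0.40, adjusted p = 0.172). The probe at 3275, which shares no sequence with the others, read 2.57 and 4.76 on the M1 arrays labelled iNOS-/-, overlapped with WT M1 at 3.79 and 3.92 and was not called (difference -0.19, adjusted p = 0.869). The probe at 3088 was detected on 1 array and was not tested. Before stimulation, the 2 bright probes were at least 93.1-fold and at least 94.7-fold higher on the arrays labelled iNOS-/-, given as bounds because WT was not detected.

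**Figure D2:**
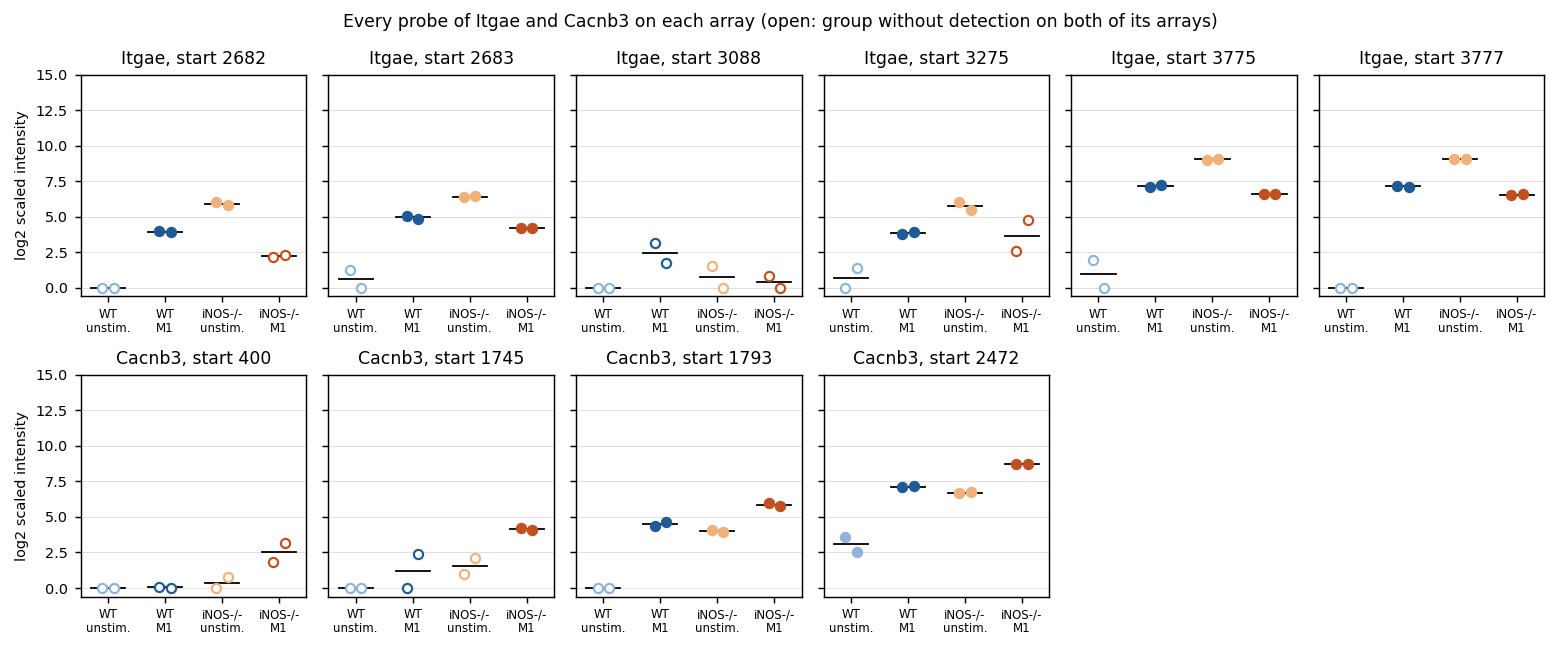
Log2 scaled intensity of every probe of Itgae and of Cacnb3 on the 8 arrays, 1 panel per probe with its start in the transcript. Open points mark groups in which the probe was not detected on both arrays and the line is the group mean; Itgae at 3775 and 3777 and the dimmer 2682 and 2683 are highest on the unstimulated arrays labelled iNOS-/-, and Cacnb3 at 1793 and 2472 is highest on the M1 arrays labelled iNOS-/-.

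Adam23 encodes a membrane protein of the ADAM family without protease activity. It was not detected in unstimulated WT cells (1.66 and 0.00) and read 9.93 and 10.03 in unstimulated cells labelled iNOS-/-, 9.09 and 9.22 in WT M1 cells and 7.70 and 7.85 in M1 cells labelled iNOS-/-. The unstimulated genotypes differed at least 179.6-fold. The M1 groups did not overlap and differed by -1.38, which was not called over all arrays (SE 0.52, adjusted p = 0.0798). Without WT unstimulated replicate 1, and likewise without replicate 2, the same difference was called (adjusted p = 0.0021 in both fits). With the 4 M1 arrays alone its adjusted p was 0.0107.

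Asb2 encodes the subunit by which a cullin 5 ubiquitin ligase recognises filamins. It read 3.11 and 2.54 in unstimulated WT cells, 9.85 and 9.86 in unstimulated cells labelled iNOS-/-, 9.82 and 9.76 in WT M1 cells and 9.30 and 9.36 in M1 cells labelled iNOS-/-. The last 3 groups thus lay within 0.53 of each other on average, far above unstimulated WT. The M1 difference of -0.46 was not called (SE 0.19, adjusted p = 0.101), although the M1 groups did not overlap. Without either unstimulated WT array, Itgae at 3775 (adjusted p = 0.0178) and Asb2 (adjusted p = 0.0154) passed the threshold, so that the count of genes called lower rose from 1 to 4.

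Itgax encodes CD11c, an integrin chain used as a general marker of dendritic cells and also present on many macrophages. It varied little: 7.74 and 7.41 in unstimulated WT cells, 7.98 and 7.98 in unstimulated cells labelled iNOS-/-, 7.88 and 8.08 in WT M1 cells and 7.65 and 7.43 in M1 cells labelled iNOS-/-. The M1 difference of -0.44 was not called (SE 0.15, adjusted p = 0.0657). Flt3 encodes the receptor for FLT3 ligand, on which dendritic cells depend in the body. Its deposited intensities lay between -3.4 and 2.7, and no value can be read from it beyond the lack of detection. Flt3l, the ligand, was not detected on any array either.

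**Figure D3:**
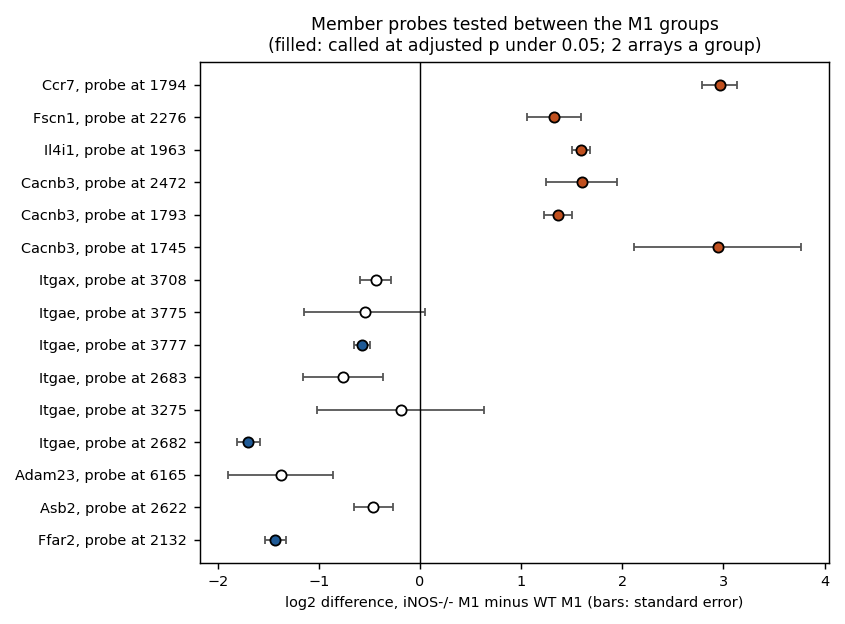
Difference in log2 scaled intensity between the M1 arrays labelled iNOS-/- and the WT M1 arrays for the 15 tested probes of the genes, with bars of 1 standard error from the limma fit (2 arrays a group). Filled points passed adjusted p under 0.05; the probes of Ccr7, Fscn1 and Il4i1 and those of Cacnb3 at 2472 and 1793 lie above 0 and are filled (Cacnb3 at 1745 was tested only through the group where it is high), and all 9 probes of the other genes lie below 0, with 3 filled.

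Counted by the brightest probe, 4 of the 9 tested genes were called higher in the M1 comparison and 1 lower, beside 22.9% and 25.3% of all tested probes. Those shares are large, 48.2% in all, so a call in this comparison is common. All 9 genes were apart between the M1 groups, 4 higher and 5 lower, where 36.6% and 38.2% of all probes were apart in these directions. The 9 genes do not include Flt3, which was too dim to count. The median difference over all tested probes was -0.03.

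The levels followed 2 orders, seen after the values were known and not tested. For Ccr7, Fscn1, Il4i1 and Cacnb3, M1 cells labelled iNOS-/- were highest, WT M1 second, unstimulated cells labelled iNOS-/- next and unstimulated WT lowest. For Itgae, Adam23, Asb2 and Ffar2, unstimulated cells labelled iNOS-/- were highest, then WT M1, then M1 cells labelled iNOS-/-, with unstimulated WT lowest again. In both sets all neighbouring groups were apart on every array. The share of all probes that follow these orders was not computed. The lowest place of unstimulated WT follows in part from how the genes were picked, so nothing is read from it. For Itgax the 2 upper groups overlapped, as did the 2 lower ones.

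In the unstimulated comparison, the 9 genes were higher on both arrays labelled iNOS-/- than on both WT arrays, which was so for 35% of all probes (34.8% were apart downward, and 32.2% passed the test in either direction). Nothing is read from that count, since the genes were partly chosen on it. The differences ran from 0.40 for Itgax through 3.58 for Ccr7, 3.64 for Cacnb3, 4.09 for Fscn1, 5.51 for Il4i1 and 5.75 for Ffar2 to 7.03 for Asb2 and to the bounds given for Itgae and Adam23. Activation in WT, which starts from the same low arrays, also went with higher readings in all 9 (39.9% of all probes were apart upward and 31.4% downward). In cells labelled iNOS-/- the same stimulus went with higher readings in 4, where 38.9% of all probes were apart upward, and lower readings in 5, where 38.2% were apart downward. Those losses were -2.71 for Ffar2, -2.43 for Itgae, -2.20 for Adam23, -0.53 for Asb2 and -0.44 for Itgax. The gains were 3.64 for Ccr7, 3.07 for Fscn1, 2.03 for Cacnb3 and 2.01 for Il4i1. These responses share arrays with the genotype comparisons and are no separate evidence for them.

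Set directly beside WT M1 cells, unstimulated cells labelled iNOS-/- read higher by 1.88 for Itgae, 1.28 for Ffar2 and 0.83 for Adam23. They lay within 0.07 for Asb2. They read lower for the other set, by -0.42 for Il4i1, -0.43 for Cacnb3, -0.68 for Ccr7 and -1.75 for Fscn1.

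Partners and ligands of the encoded proteins went in both directions. Of 19 genes listed, 17 were on the array and 13 were tested. Between the M1 groups 3 were called higher and 2 lower, with a median difference of 0.07, where 22.9% and 25.3% of all probes were. Itgb7, which encodes the beta 7 chain that pairs with CD103, was lower by -1.64 (SE 0.09, adjusted p = 0.00026), reading 8.51 and 8.47 on the WT M1 arrays and 6.87 and 6.83 on those labelled iNOS-/-. Its other readings were 7.69 and 7.53 in unstimulated WT cells and 8.50 and 8.57 in unstimulated cells labelled iNOS-/-, where it was higher (0.93, adjusted p = 0.0018). Cdh1, encoding E-cadherin, the ligand of CD103, was higher before stimulation by 4.72 (SE 0.23, adjusted p = 0.00021), and its M1 difference of -0.55 was not called (adjusted p = 0.11).

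Itgb2, the partner chain of CD11c, differed by -0.13 between the M1 groups and was not called (adjusted p = 0.44). Icam1, a ligand of beta 2 integrins, rose by 1.03 (SE 0.08, adjusted p = 0.00047). Flna, a filamin and so a known substrate of the Asb2 ligase, was higher before stimulation by 1.13 (SE 0.12, adjusted p = 0.0023), and its M1 difference of -0.31 was not called (adjusted p = 0.089). The Ccr7 ligands gave no value: Ccl21a was detected on no array and Ccl19 on 1.

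Genes listed for mature dendritic cells outside the 10 were mostly higher on the M1 arrays labelled iNOS-/-. Of 20 listed, 18 were on the array and tested. Between the M1 groups 16 were called higher and none lower, where 22.9% and 25.3% of all probes were, with a median difference of 1.62. The 2 that missed the threshold, Ccl22 (2.21) and Cd200 (1.28), were called with neqc, with a floor of 16 and with the M1 arrays alone; Ccl22 was also called without either WT unstimulated array (adjusted p = 0.00184) and Cd200 without either unstimulated array labelled iNOS-/- (adjusted p = 0.0137). Il12b, encoding IL-12 p40, differed by 3.22 (SE 0.43, adjusted p = 0.0027). It read 3.57 and 2.79 on the WT M1 arrays, with detection on 1 of them, and 6.64 and 6.15 on those labelled iNOS-/-. No unstimulated array detected Il12b. It passed the filter only through the M1 arrays labelled iNOS-/-, so its difference is no further support. Apol7c was 7.98-fold higher (SE of the log2 difference 0.64, adjusted p = 0.014), a call lost when any 1 of the M1 arrays was left out (adjusted p from 0.0553 to 0.0626). Cd40, the receptor for T cell CD40 ligand, differed by 1.75 (SE 0.08, adjusted p = 0.00017). Before stimulation 13 of the 18 were called higher and 1 lower, where 16.7% and 15.4% of all probes were. The 1 called lower was Cd200 (-2.74), and it was not called without either unstimulated WT array or any 1 of the 4 M1 arrays. Cd40 led with Apol7c there, by 4.84 (SE 0.08, adjusted p = 2.1e-05) and at least 75.6-fold (adjusted p = 0.001). The median of the list in that comparison was 1.67. Activation raised 17 of the 18 in WT and all 18 in cells labelled iNOS-/-, where 20.8% and 25.2% of probes were called higher (35.1% and 50.3% in either direction). The study counts IL-12 among M1 macrophage markers. Dendritic cell maturation and M1 activation of macrophages cannot be told apart by this list. For the WT response, 59.3% of all calls were upward with the scaling used, but 47.4% with quantile normalization and 44.4% with neqc.

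Markers of the conventional branches did not move as 1 block. Of the 11 cDC1 genes 6 were tested. Btla, Id2 and Irf8 were called higher between the M1 groups and none lower (median 1.32), where 22.9% and 25.3% of all probes were. The call of Irf8 (0.86) was lost without WT M1 replicate 2 (adjusted p = 0.0528) and with quantile normalization (0.44, adjusted p = 0.0879). Btla, an inhibitory receptor, differed by 2.78 (SE 0.26, adjusted p = 0.00087). Id2, a transcriptional inhibitor needed for cDC1, differed by 1.76 (SE 0.10, adjusted p = 0.00025). The defining cDC1 receptors were at or near background: Xcr1 was detected on 1 array, and Clec9a differed by -0.38, uncalled, with the sign turned without WT M1 replicate 1 (1.05) or the second M1 array labelled iNOS-/- (0.67). Before stimulation Btla alone of the 6 was called, higher by 2.55 (SE 0.26, adjusted p = 0.002), where 16.7% of all probes were called higher and 15.4% lower.

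All 6 tested cDC2 genes of 7 listed were called lower between the M1 groups (median -1.36), where 25.3% of all probes were. Cd209a, encoding a C-type lectin, read 4.79 and 5.16 on the WT M1 arrays and 0.00 on both M1 arrays labelled iNOS-/-, at least 4.21-fold lower (adjusted p = 0.0013). Klf4, a transcription factor, differed by -3.77 (SE 0.30, adjusted p = 0.00056). Mgl2, encoding CD301b, differed by -1.02 (SE 0.09, adjusted p = 0.00066). Before stimulation 4 of these 6 were called higher and 1 lower, where 16.7% and 15.4% of all probes were. The lectin genes Mgl2 and Cd209a were among the higher ones, Mgl2 by 2.42 (SE 0.09, adjusted p = 9.4e-05) and Cd209a at least 6.97-fold (adjusted p = 0.0031). On activation of WT cells 4 of the 6 were called higher and 1 lower, beside 20.8% and 14.3% of all probes. On activation of cells labelled iNOS-/- 5 were called lower and none higher, beside 25.1% and 25.2% of all probes. The study proposes that another transcription factor of this list matters in alternatively activated macrophages. The cDC2 branch and that macrophage state cannot be told apart by this list.

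Of 5 general cDC genes 3 were tested. Kmo, an enzyme of tryptophan breakdown, was lower between the M1 groups by -1.39 (SE 0.22, adjusted p = 0.0052). Dpp4, encoding CD26, differed by 1.15 and was not called (SE 0.53, adjusted p = 0.13), but was called without unstimulated WT replicate 1 or 2 (adjusted p = 0.00199 in both), and the list then had 2 genes called higher. Zbtb46, a transcription factor of conventional dendritic cells, differed by 0.70 and was not called (SE 0.24, adjusted p = 0.058), but was called without either unstimulated WT array (adjusted p = 0.0205). All 3 were called higher before stimulation, where 16.7% of all probes were: Zbtb46 by 2.62, Dpp4 at least 79.7-fold and Kmo at least 17.3-fold.

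Plasmacytoid dendritic cell genes went in both directions. Of 10 on the array 7 were tested, with 2 called higher and 1 lower between the M1 groups (median 0.11). The shares of all probes were 22.9% and 25.3% there, and 16.7% and 15.4% before stimulation. Tcf4, their lineage transcription factor, rose by 1.61 (SE 0.10, adjusted p = 0.00031), while Siglech, a surface marker, was at least 2.16-fold lower (adjusted p = 0.019). The Siglech call was lost without WT M1 replicate 1 (adjusted p = 0.0550), without WT M1 replicate 2 (adjusted p = 0.0872) and without the second M1 array labelled iNOS-/- (adjusted p = 0.0843). It was also lost without the detection filter (adjusted p = 0.0504) and with a floor of 16, where the difference was -0.09 (adjusted p = 0.322). The count called higher was 1 without any 1 of the M1 arrays, and the count called lower was 2 without either unstimulated array labelled iNOS-/-. Before stimulation Siglech was at least 2.28-fold higher (adjusted p = 0.022) and Pacsin1 was higher by 4.62 (SE 0.18, adjusted p = 0.00011). This Siglech call was lost without WT unstimulated replicate 2 or either unstimulated array labelled iNOS-/-. It was also lost without the detection filter (adjusted p = 0.0582) and with only the unstimulated arrays in the fit (adjusted p = 0.0708). The count of 2 called higher fell without WT unstimulated replicate 2 or the second unstimulated array labelled iNOS-/-.

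**Figure D4:**
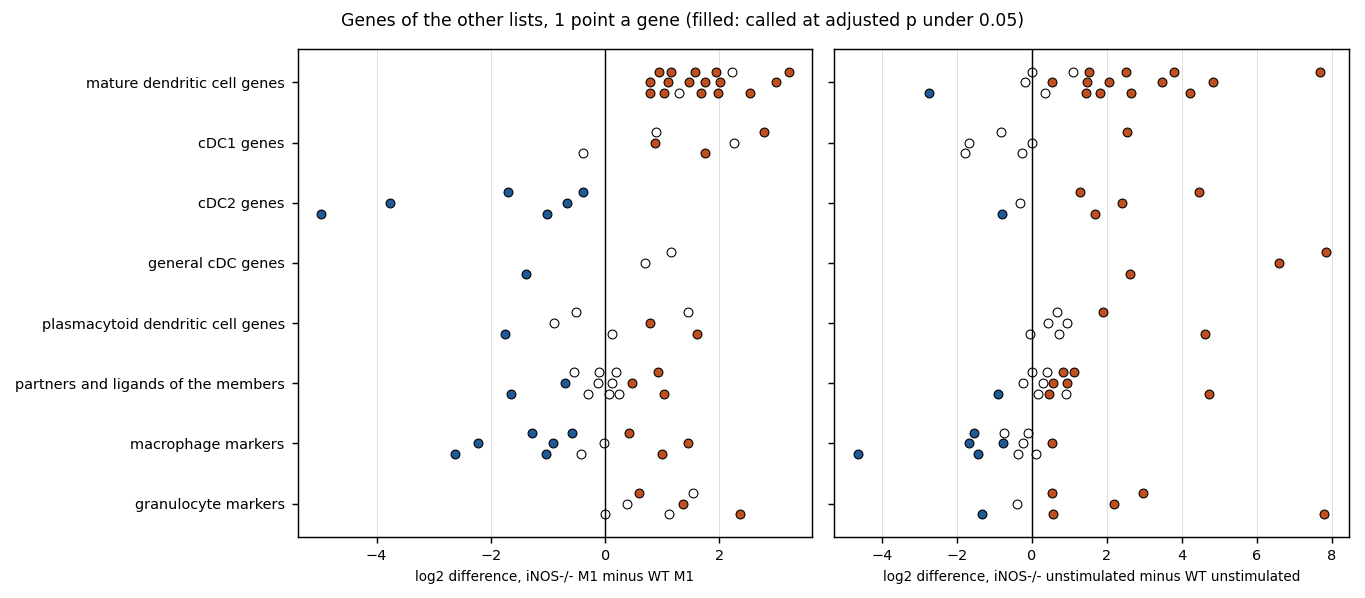
Differences in log2 scaled intensity between the genotypes for the tested genes of 8 lists that hold none of the 10 genes, between the M1 groups (left) and before stimulation (right), 1 point a gene. Filled points passed adjusted p under 0.05. On the left 16 of 18 mature dendritic cell genes are filled above 0 and all 6 cDC2 genes are filled below 0, where 22.9% and 25.3% of all probes were called higher and lower.

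Markers of other cells moved beside these genes. Of 11 macrophage markers, all tested, 3 were called higher and 6 lower between the M1 groups (median -0.58), where 22.9% and 25.3% of all probes were. Before stimulation 1 was called higher and 5 lower (median -0.76), where 16.7% and 15.4% of all probes were. The 3 higher between the M1 groups were Cd14 (1.45, SE 0.13, adjusted p = 0.00081), Mertk (0.99, SE 0.10, adjusted p = 0.0012) and Emr1. Cd14 and Mertk were among those called lower before stimulation (-0.77 and -1.45). Of the 3, Emr1 (0.41) was at -0.04 and uncalled with quantile normalization and with neqc, and was uncalled without either WT array, unstimulated or M1, and without either M1 array labelled iNOS-/- (adjusted p from 0.0574 to 0.124). Apoe, a lipid carrier of macrophages, was lower before stimulation by -4.65 (SE 0.10, adjusted p = 2.6e-05) and between the M1 groups by -2.22 (SE 0.10, adjusted p = 0.00017). C5ar1 was lower before stimulation by -1.69 (SE 0.43, adjusted p = 0.034). This call was lost without either WT unstimulated array, either WT M1 array or the first unstimulated array labelled iNOS-/-. It was also lost without the detection filter (adjusted p = 0.0859) and with only the unstimulated arrays in the fit (adjusted p = 0.0933). With a floor of 16 the difference was -0.36 and uncalled (adjusted p = 0.331). The 1 marker called higher before stimulation, Fcgr1 (0.54), was not called without unstimulated WT replicate 2 or either unstimulated array labelled iNOS-/-. The summed scaled intensity of the 11 markers ran from 33369 to 33673 in unstimulated WT cells, 24083 to 24954 in unstimulated cells labelled iNOS-/-, 32625 to 35070 in WT M1 cells and 35837 to 36605 in M1 cells labelled iNOS-/-.

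Of 10 granulocyte markers 7 were tested. S100a9 and S100a8, calcium-binding proteins abundant in neutrophils and monocytes, were higher between the M1 groups by 2.35 (SE 0.11, adjusted p = 0.00018) and 1.36 (SE 0.09, adjusted p = 0.00039). Of the 7, 3 were called higher and none lower there, where 22.9% and 25.3% of all probes were. Before stimulation 5 were called higher and 1 lower, where 16.7% and 15.4% of all probes were. S100a9 was at least 39.4-fold higher (adjusted p = 1.4e-05) and Ngp at least 2.13-fold (adjusted p = 0.0091). The count of 5 was 2 without unstimulated WT replicate 1 and 3 without either WT M1 array or either unstimulated array labelled iNOS-/-. Without the first unstimulated array labelled iNOS-/- the count called lower was 2. The granulocyte sums ran from 1128 to 1152 in unstimulated WT cells, 1686 to 1748 in unstimulated cells labelled iNOS-/-, 1399 to 1505 in WT M1 cells and 3868 to 3992 in M1 cells labelled iNOS-/-. Mpo, a defining granule enzyme, was detected on no array. The 6 lymphocyte markers on the array, Cd3e among them, were detected on none, with sums between 1.69 and 12.4. The part that macrophage and granulocyte RNA had in the results for the 10 genes was not tested.

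The genes whose profile over the 8 arrays lay nearest to 3 of the mature dendritic cell genes were found among 10162 tested genes by the mean absolute distance of their centred log2 values. Among the 3 nearest to Ccr7 were Stat4 (0.34) and Cx3cl1 (0.37). Nearest to Il4i1 were Fyn (0.29), an entry that the table names only by an Ensembl number (0.35) and Tnfsf4 (0.43). Among the 3 nearest to Fscn1 were Tnfsf4 (0.21) and Tmtc2 (0.33). Stat4, for example, read 6.83 and 6.87 on the WT M1 arrays and 9.97 and 9.96 on the M1 arrays labelled iNOS-/-. With 8 arrays in 4 groups, such distances mainly compare 4 group means.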

How the data were processed

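RNA of GM-CSF-cultured marrow macrophages was read on Illumina MouseRef-8 v2 bead arrays (MouseWG-8 in another of the labels). The deposited table holds, for each probe on each array, an average intensity with its detection p-value. Per the file headers the authors exported it from GenomeStudio without normalization or background subtraction, although 25.2% to 27.2% of the values are below 0. The authors' notes name GenomeStudio and limma 3.14.4. The build of the probe coordinates is not given in the sources used here, and no coordinates are printed.

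Arrays were brought to a common scale, that of their mean, by a robust line through the origin over rank-invariant probes (MASS 7.3.60.0.1, factors 0.813 to 1.30), floored at 1 and put on the log2 scale. Probes detected (p under 0.05) on at least 2 arrays were kept. limma 3.58.1 in R 4.3.3 fitted the 4 groups over 8 arrays. The test was checked on simulated data. Adjusted p-values are Benjamini-Hochberg over 13868 probes, and called means under 0.05. A gene stands for its probe with the highest mean. Where a group had no array with detection, the fold is a bound: the brighter group's mean against the dim group's mean, with each dim array set to its lowest detected level if that was higher than its own. The number of arrays limits the precision.

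The 10 genes and the 9 lists were chosen with earlier results of these data known, and no p is adjusted over a list alone. Named are all 10 genes with every probe, Nos2, from each list the 2 largest called differences in each genotype comparison, and the 3 nearest profiles for Ccr7, Il4i1 and Fscn1. Some genes that this rule names are not reported here. Irf8, Xcr1, Clec9a, Ccl22, Cd200, Zbtb46, Emr1, Cd14, Mertk, Csf1r, Fcgr1, Nup62, Itgb2, Flt3l, Ccl19, Ccl21a, Mpo and Cd3e were named after their values were seen. Alternatives were quantile normalization, neqc with an offset of 16, a floor of 16, no detection filter, detection on at least 4 arrays, fits of 4 arrays, replicate number as a block, each array left out, and the mean of a gene's probes.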

Additional observations from a re-analysis of the deposited data

Results flagged for a closer look

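The results here are those in which the response to LPS plus IFN-γ ran in opposite directions in the genotypes on every array. Unless stated otherwise, WT cells read higher after activation and cells labelled iNOS-/- lower. The differences were not tested. The value given is the response of cells labelled iNOS-/- minus that of WT, in log2, and both responses share arrays with the genotype comparisons. It contains the unstimulated genotype difference, on which several of the dendritic cell genes were picked and by which some list genes were named. Nothing is therefore read from its sign or size for these genes. The share of all probes with such opposite responses was not computed.

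Among the dendritic cell genes the difference was -10.53 for Adam23 (8.32 in WT, -2.20 in cells labelled iNOS-/-), -8.62 for Itgae (6.19 and -2.43), -7.50 for Asb2 (6.97 and -0.53), -7.18 for Ffar2 (4.47 and -2.71) and -0.84 for Itgax (0.40 and -0.44). The WT readings of Adam23 and Itgae start from arrays without detection, so these sizes depend on the floor.

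Among the named genes of the other lists it was -9.45 for Cd209a, -7.99 for Kmo, -5.27 for Cdh1, -4.51 for Pacsin1, -3.64 for Siglech, -3.44 for Mgl2, -2.56 for Itgb7, -1.58 for the macrophage marker Fcgr1 and -1.44 for Flna. Itgb2 (0.79) and Emr1 (0.31) went the other way, lower in WT and higher in cells labelled iNOS-/-. So did Mertk, with a response of -0.28 in WT and 2.16 in cells labelled iNOS-/-. Cd209a, Kmo and Siglech also start from unstimulated WT arrays without detection. Groups of 2 arrays were too small to look for single arrays that stand apart.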

How the results depend on the processing

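None of the differences of the 9 tested genes changed direction under any alternative. For the other tested genes named above, except Cd14, Mertk and the genes named for their near profiles, the 2 genotype comparisons were refitted. The direction turned, always without a call, for Emr1 between the M1 groups (-0.0439 with quantile normalization and -0.0436 with neqc) and before stimulation (-0.0293 to 0.237 with each array left out, below 0 without the second unstimulated array labelled iNOS-/-), for Id2 before stimulation (0.131 with quantile normalization, 0.128 with neqc and -0.0571 to 0.0502 with each array left out, above 0 without WT unstimulated replicate 2 or the second unstimulated array labelled iNOS-/-) and for Clec9a between the M1 groups (-1.81 to 1.05 with each array left out, above 0 without WT M1 replicate 1 or the second M1 array labelled iNOS-/-). Ccr7, Il4i1 and Ffar2 were called in 16 of 16 settings, the main one included, with M1 differences of 2.58 to 3.11, 1.17 to 1.66 and -1.53 to -1.26. Fscn1 was called in 13 and Cacnb3 in 12, as given above. The count of genes called higher, 4, was 2 without WT M1 replicate 1, without WT M1 replicate 2 and without the first M1 array labelled iNOS-/- (range 2 to 4 with each array left out). Such a fit takes the remaining array of a group to vary as arrays elsewhere do. The count called lower, 1, was 2 with quantile normalization, 5 with neqc, 4 with a floor of 16, 4 with only the M1 arrays in the fit, 4 without unstimulated WT replicate 1 or 2 (range 1 to 4 with each array left out) and 2 with the mean of a gene's tested probes. With neqc the added genes were Itgae (adjusted p = 0.00815), Adam23 (1.64e-06), Asb2 (0.000232) and Itgax (0.0227), and with the floor of 16 Itgae (0.00355), Adam23 (0.000323) and Asb2 (0.000412). These fits, other than quantile normalization and the mean of probes, leave out or raise low unstimulated WT values.

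Over the lists, 30 genes were called higher and 16 lower between the M1 groups, and between 24 and 36 higher and 13 and 19 lower under the alternatives. Mature dendritic cell genes called higher ran from 15 to 18, and cDC2 genes called lower from 5 to 6. Granulocyte markers called higher between the M1 groups, 3, were 6 with neqc and 5 with a floor of 16 or the M1 arrays alone. Their count fell below 3 without WT M1 replicate 1. The untested differences of the 9 genes kept their sign in all 405 refitted values, and 48 of these moved by more than the spread of the arrays. Quantile normalization moved the median of all probes in the response of cells labelled iNOS-/- from 0.00 to -0.13, and in that of WT cells from 0.09 to -0.06. With a floor of 16, Clec9a, Il12b, Ngp, Nos2 and Siglech have no unstimulated difference and Clec9a has no M1 difference, and Clec9a and Il12b have no value with detection required on at least 4 arrays. Probes near background, such as Cacnb3 at 1745 and Itgae at 2682, give bounds and no level.

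Replicate numbers showed no pairing of the arrays: the deviations of equally numbered arrays correlated between -0.04 and 0.02 across groups. A correlation over all tested probes cannot exclude a shared source that affects few of them. With the replicate number as a block, 4 of the genes were called higher and 1 lower, as without it, and 29 list genes higher and 17 lower, with 6276 in place of 6687 probes called in all.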
